A study of Sus scrofa with 599 samples.

Results

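The expression of 10 immediate early genes, FOS, FOSB, JUN, JUNB, ATF3, EGR1, NR4A1, DUSP1, ZFP36 and IER2, was followed in adipose tissues (ATs) of pigs that gained or lost weight. The genes were taken by their symbols. Of the 10 symbols, 8 were matched among the 21280 protein-coding genes (PCGs) of the expression table, and expression of JUN and IER2 was not analysed here. All 10 genes were placed on the genome, so that the compartment index of the bin holding each gene start could be read. RNA-seq and Hi-C (240 samples) covered 12 groups, made of 3 feeding regimens (NC, WG and WL) and 4 ATs.

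The animals were female Bama pigs, a Chinese miniature breed, 2 years old. The NC group received normal feed, the WG group a high-fat feed over 22 weeks, and the WL group consisted of high-fat pigs whose intake was then cut for 12 weeks to 10% of normal calories. The ATs were the greater omentum (GOM), the mesenteric (MAD) and the retroperitoneal (RAD) depots, which are visceral, and the upper layer of backfat (ULB), which is subcutaneous. All pigs went unfed on the night before they were killed, and the ATs were dissected by hand and then frozen in liquid nitrogen. RNA-seq samples of NC, WG and WL numbered 9, 45 and 10 in GOM, 12, 36 and 10 in MAD, 12, 39 and 10 in RAD, and 5, 38 and 10 in ULB.

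Immediate early genes are switched on within minutes of a stimulus, without new protein synthesis, by transcription factors that are already in the nucleus and are activated by kinase cascades. Serum response factor with its partners, which binds the CArG box, and CREB, which binds the cyclic AMP response element (CRE), are the best known of these factors. Their products are either transcription factors that drive later genes or feedback regulators that end the signal, and the transcripts are short lived, so that their level in a tissue piece follows recent stimulation, including that during collection.

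Both kinds of element were found in the 1000 bases before the annotated start of some of the 10 genes (RefSeq annotation and sequence of Sscrofa11.1). The sequences are shown because these elements are the textbook route of induction, and each is given with 40 bases on either side, on the strand of the gene, with the element in capitals.
FOS, CArG box, chr7:98449012-98449101 (plus strand): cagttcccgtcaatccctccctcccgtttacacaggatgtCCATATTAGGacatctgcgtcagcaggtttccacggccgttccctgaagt
IER2, CArG box, chr2:65912651-65912740 (minus strand): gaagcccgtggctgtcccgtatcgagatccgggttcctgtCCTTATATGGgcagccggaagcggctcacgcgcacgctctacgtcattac
NR4A1, CArG box, chr5:17402219-17402308 (plus strand): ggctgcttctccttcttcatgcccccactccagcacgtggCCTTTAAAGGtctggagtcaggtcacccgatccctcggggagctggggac
DUSP1, CRE, chr16:51457832-51457919 (plus strand): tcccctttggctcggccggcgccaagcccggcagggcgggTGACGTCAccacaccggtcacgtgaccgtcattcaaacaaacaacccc

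Counted from the gene start, the first base of the element lay at -456 in FOS, -209 in IER2, -829 in NR4A1 and -52 in DUSP1. On both strands, a CArG box was found in 3 of the 10 windows and in 5.79% of the windows of 18720 PCGs, and the CRE TGACGTCA in 1 of 10 and 2.39%. The site of the AP-1 factor itself, TGANTCA, was found in the JUNB window only among the 10 and in 23.4% of the PCG windows, and the letters TATAAA in 4 of 10 and 39.97%. These matches are letters in a window and were not tested as binding sites. In the RefSeq annotation NR4A1 is listed as a pseudogene, whereas the expression table holds it among the PCGs, so its level may include uncertainty of the gene model.

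Sequencing depth ranged from 3337098 to 22939420 estimated counts on PCGs per sample, with a median of 16791659. The summed TPM (transcript abundance scaled to the same total in each library) of 7 adipocyte markers lay between 3754 and 32990 in each RNA-seq sample, and the group medians of 4 skeletal muscle markers lay between 1.10 and 4.80. In 40 libraries less than 88% of the TPM fell on PCGs, including 7 of 9 of NC GOM, 6 of 12 of NC RAD, 6 of 10 of WL GOM and 6 of 10 of WL MAD. One library, replicate 35 of WG GOM, had a median correlation of 0.58 with the other RNA-seq libraries of all groups, and the lowest depth. Within WG, the first principal component, computed without the members, split the libraries of each AT into set 1 and set 2. Set 1 held 26, 17, 22 and 20 libraries in GOM, MAD, RAD and ULB, set 2 held 18, 19, 17 and 18, and replicate 35 of WG GOM was left out. Of 44 replicate numbers found in at least 2 ATs, 41 fell in the same set in every AT. The median share of TPM on PCGs was 92.4%, 92.8%, 92.9% and 93.5% in set 1 of GOM, MAD, RAD and ULB, against 95.4%, 95.8%, 95.9% and 95.7% in set 2. The median depth was 15015407, 14778148, 16438324 and 16102209 counts in set 1, against 17788283, 18773269, 19895205 and 19336545 in set 2. Set 2 was named as the set with the higher median share in each AT, so the direction of the share follows from the naming. The higher median depth of set 2 in all 4 ATs does not. The part of share and depth in the split was not tested. The labels of the RNA-seq samples do not give the sets, and how they relate to the WG sub-groups that were pooled for the H3K27ac lists was not tested. For part of the expression differences of the members that rest on WG, values are therefore also given for each set, without a p. Differences in the A-B index and those of the other gene lists and markers are not given by set. Replicates are separate samples by their labels only, so p-values measure the spread between these samples.

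The 8 genes were first compared between ATs within WG, where a difference was called where the edgeR quasi-likelihood test gave an adjusted p under 0.05 and the fold exceeded 1.5. All 8 were called higher in MAD, in RAD and in ULB than in GOM, which makes 24 calls of 24. Over all PCGs tested, 2.46% were called higher and 3.81% lower in MAD than in GOM, 4.11% and 7.08% in RAD, and 7.59% and 10.3% in ULB. Over the 6 pairs of ATs together, 4.56% of PCG tests were called higher in the second AT and 6.2% lower. None of the 8 was called between MAD and RAD, MAD and ULB or RAD and ULB, where the percentages of PCGs called higher in the second AT were 1.75, 6.25 and 5.2, and of PCGs called lower 3.65, 8.18 and 4.07. The log2 fold changes of the 8 genes in these pairs ran from -0.51 to 0.46. These comparisons share WG samples. In bulk tissue, fewer cells of a type and less RNA per cell cannot be told apart.

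**Figure D1:**
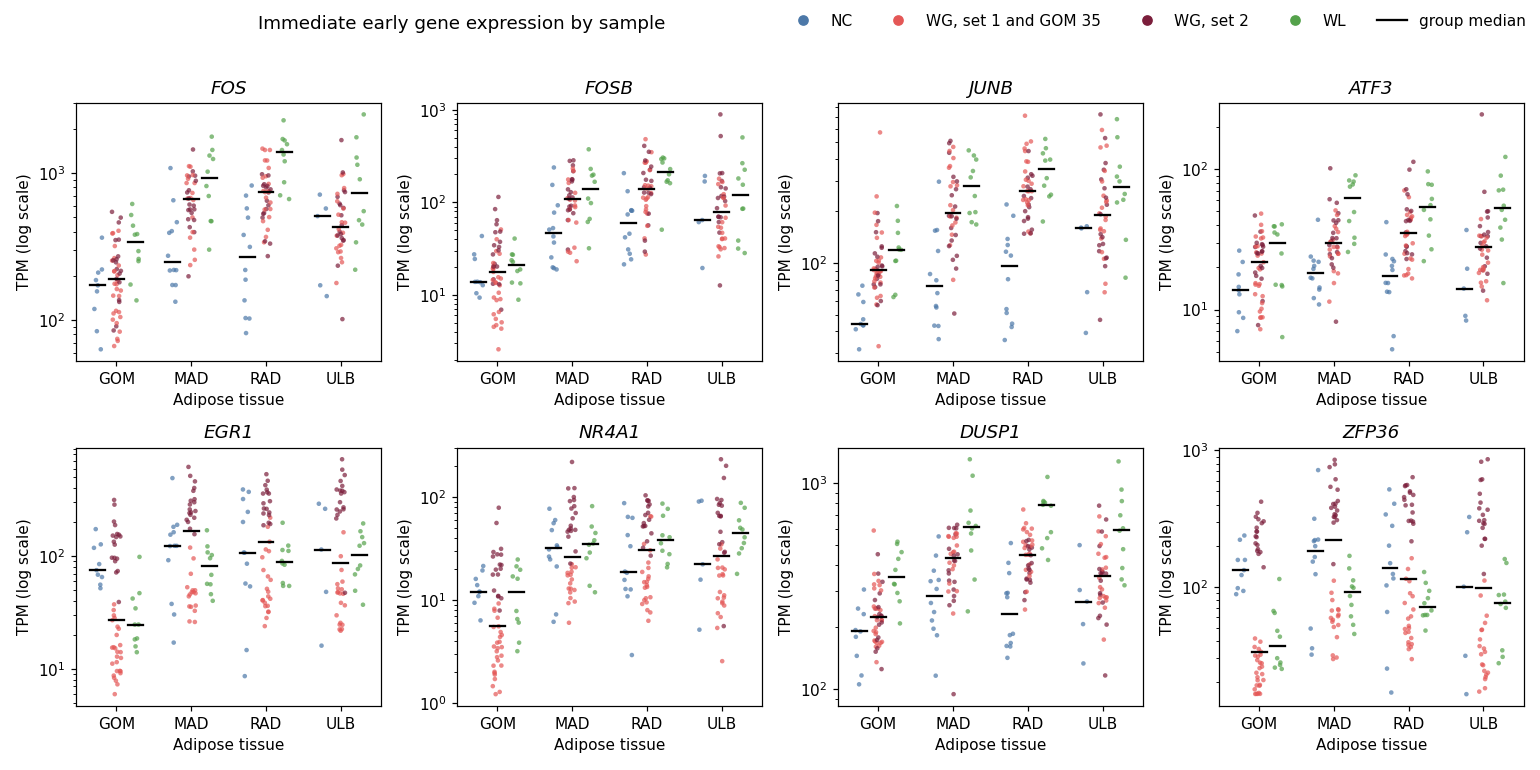
TPM on a log scale of the 8 genes in each RNA-seq sample, by AT and diet, with NC in blue, WG set 1 (and replicate 35 of GOM) in red, WG set 2 in dark and WL in green, and black lines at the group medians. GOM lies lowest of the 4 ATs in WG for each gene, and the red and dark points of ZFP36 do not overlap in any AT.

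FOS (ENSSSCG00000002383, chromosome 7, 98449508 to 98451971) encodes the founding Fos subunit of AP-1, a dimer of Fos and Jun family proteins. Its lowest, median and highest TPM in WG were 66.4, 191 and 545 in GOM, 198, 665 and 1451 in MAD, 272, 743 and 1471 in RAD, and 101, 429 and 1681 in ULB. The ranges overlapped, but the GOM median lay below the lowest value of MAD and of RAD. The log2 fold change over GOM was 1.71 (SE 0.15, adjusted p = 1.42e-16, n = 45 and 36) in MAD, 1.90 (SE 0.15, adjusted p = 6.45e-20) in RAD and 1.38 (SE 0.16, adjusted p = 5.48e-12) in ULB. FOS was also lower in ULB than in RAD by a log2 fold change of -0.51 (adjusted p = 0.0055), which lies under the fold limit.

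FOSB (ENSSSCG00000031616, chromosome 6, 51836780 to 51844531), a second Fos family subunit, differed by the largest fold of the 8 genes in each of the 3 comparisons with GOM. In WG its TPM had a lowest, median and highest value of 2.59, 17.7 and 114 in GOM, 23.1, 108 and 284 in MAD, 27.3, 141 and 481 in RAD, and 12.7, 78.2 and 891 in ULB. The GOM median was below every library of MAD and RAD. The log2 fold changes over GOM were 2.40 (SE 0.23, adjusted p = 1.01e-14), 2.87 (SE 0.24, adjusted p = 2.39e-18) and 2.44 (SE 0.27, adjusted p = 4.58e-13).

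JUNB (ENSSSCG00000013735, chromosome 2, 66214086 to 66219435, minus strand), a Jun family subunit, ranged in WG from 32.9 to 571 TPM in GOM with a median of 90.9, and had medians of 195, 261 and 188 in MAD, RAD and ULB. The highest GOM value, that of replicate 35, was above the highest of MAD, and the lowest RAD value, 148, was above the GOM median. ATF3 (ENSSSCG00000015595, chromosome 9, 130772259 to 130829678, minus strand), a stress-induced factor that pairs with Jun proteins, had medians of 21.8, 29.6, 35 and 27.7 TPM in GOM, MAD, RAD and ULB, and its ranges overlapped widely. The log2 fold changes over GOM were 1.10, 1.43 and 1.13 for JUNB (SE 0.15 to 0.18) and 0.60, 0.92 and 0.68 for ATF3 (SE 0.14 to 0.17).

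EGR1 (ENSSSCG00000014336, chromosome 2, 140440829 to 140445302) encodes a zinc finger transcription factor induced by growth factors, and NR4A1 (ENSSSCG00000031321, chromosome 5, 17403088 to 17407918) an orphan nuclear receptor. EGR1 in WG had a lowest, median and highest TPM of 5.98, 27.1 and 316 in GOM, 26.1, 166 and 620 in MAD, 24, 135 and 535 in RAD, and 21.8, 87.8 and 725 in ULB. NR4A1 was the lowest of the 8 genes, with 1.23, 5.59 and 78.9 TPM in GOM, 6.06, 26.2 and 219 in MAD, 6.33, 30.5 and 104 in RAD, and 2.57, 26.9 and 233 in ULB. Both spread over more than 10-fold within each AT. Over GOM, the log2 fold changes of EGR1 were 1.54 (SE 0.33), 1.51 (SE 0.32) and 1.63 (SE 0.34) in MAD, RAD and ULB, and those of NR4A1 were 1.99 (SE 0.30), 1.81 (SE 0.29) and 2.02 (SE 0.32).

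DUSP1 (ENSSSCG00000016991, chromosome 16, 51457924 to 51461095) encodes a phosphatase that switches off mitogen-activated protein kinases, and ZFP36 (ENSSSCG00000028056, chromosome 6, 48063732 to 48066235) tristetraprolin, which directs the decay of AU-rich mRNAs. DUSP1 had the narrowest range, with a lowest, median and highest TPM of 125, 224 and 590 in GOM, 94.7, 434 and 630 in MAD, 244, 451 and 747 in RAD, and 117, 354 and 780 in ULB. ZFP36 ran from 16.3 to 420 in GOM with a median of 33.3, from 29.5 to 852 in MAD with a median of 221, from 29.4 to 635 in RAD with a median of 114, and from 17 to 860 in ULB with a median of 98.5. Their log2 fold changes over GOM in MAD, RAD and ULB were 0.86, 0.99 and 0.72 for DUSP1 (SE 0.09 to 0.11), and 1.26, 1.05 and 0.94 for ZFP36 (SE 0.32 to 0.35).

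The same order was seen among samples that carry the same replicate number. NR4A1 was higher in MAD than in GOM in 36 of 36 numbers, FOSB, EGR1 and ZFP36 in 35, FOS in 34, JUNB in 33, DUSP1 in 32 and ATF3 in 29. The median over PCGs was 44.4% of the numbers. Against RAD, the counts ran from 31 of 39 for ATF3 to 38 of 39 for FOS, FOSB, JUNB, EGR1 and NR4A1, where the median PCG was higher in 41%, and against ULB from 29 of 38 for ATF3 and ZFP36 to 37 of 38 for EGR1, where it was 39.5%. Labels do not say that a number is one animal. With the replicate number as a block, 23 of the 24 calls were kept and ATF3 in ULB, at 0.56, fell under the fold limit, and all 24 were kept without replicate 35 of WG GOM.

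**Figure D2:**
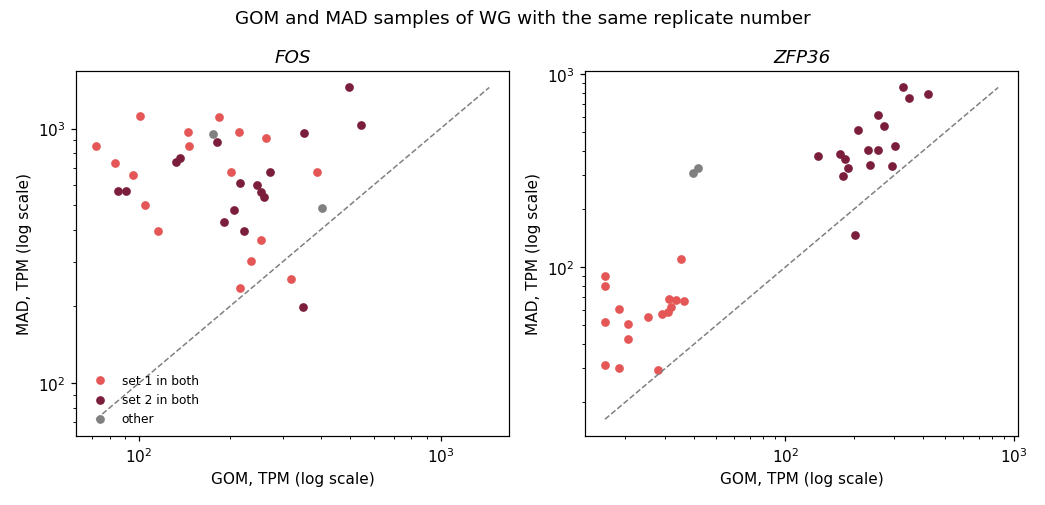
TPM of FOS and of ZFP36 in MAD against GOM, on log scales, for WG samples with the same replicate number, with colours by set and a dashed line of equality. Points lie above the line for 34 of 36 numbers in FOS and 35 of 36 in ZFP36, and the sets are apart in ZFP36 but mixed in FOS.

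Within each set of WG libraries the 8 genes were likewise higher in MAD, RAD and ULB than in GOM. In set 1 the log2 fold changes ran from 0.42 (ATF3 in ULB) to 3.41 (FOSB in RAD), and in set 2 from 0.66 (ATF3 in MAD) to 2.33 (FOSB in ULB). FOS lay at 1.88, 2.2 and 1.48 in set 1 and at 1.45, 1.42 and 1.23 in set 2 for MAD, RAD and ULB.

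Of 44 further immediate early genes listed, 39 were tested, and 13, 19 and 15 were called higher than in GOM in MAD, RAD and ULB, with 0, 0 and 3 called lower. Their median log2 fold changes were 0.28, 0.52 and 0.40, where the median over all PCGs was within 0.01 of 0. Among them were NR4A3, a relative of NR4A1 (1.95 in MAD), CCN1, a secreted matrix protein (1.59 in RAD), PPP1R15A, which restores translation after stress (1.0 in RAD), and EGR2, a relative of EGR1 (1.44 in ULB). Of 17 upstream factors and kinases tested, 0 were called between GOM and any of the other ATs by edgeR. Of 13 heat shock genes 0 were called in MAD, 2 higher and 1 lower in RAD, and 1 higher and 1 lower in ULB.

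Markers of other cells also differed between these ATs. Of 3 neutrophil markers tested, 2 were called lower than in GOM in each of MAD, RAD and ULB, and the summed neutrophil TPM in WG had medians of 267, 93.2, 89.7 and 165 in GOM, MAD, RAD and ULB (45.1 to 1895 in GOM). Of 5 smooth muscle markers, 4 were called higher in MAD, 0 higher and 1 lower in RAD, and 2 higher and 1 lower in ULB. One of 2 mesothelial markers was lower in each, and 1, 3 and 1 of 7 adipocyte markers were higher. T and B cell markers had 2 of 6 higher in MAD and 3 of 4 lower in RAD and in ULB. For ULB, 3 of 3 erythroid, 1 of 5 endothelial, 1 of 7 macrophage and 1 of 1 skeletal muscle markers were lower, with 0 called in MAD and RAD, and of 5 fibroblast and progenitor markers 1 was higher in each and 0, 1 and 3 were lower. Their part in the differences of the immediate early genes was not tested.

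**Figure D3:**
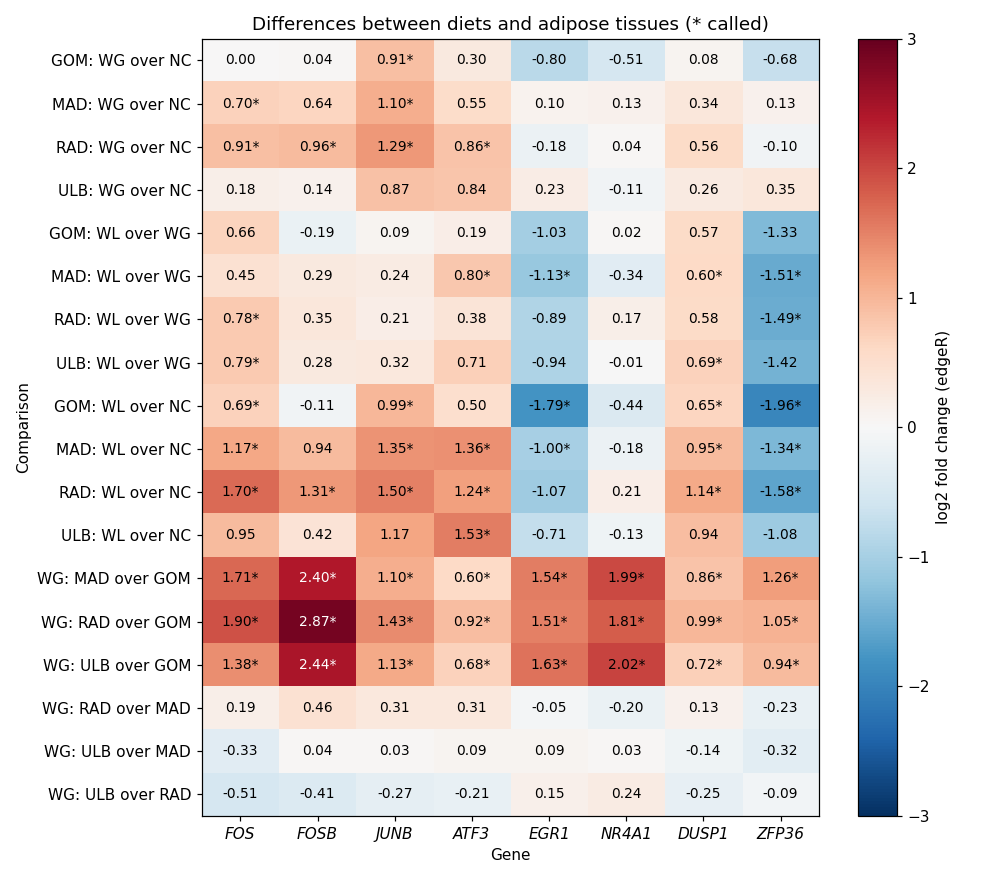
Heat map of the log2 fold change of the second group over the first for 8 genes in 18 comparisons, with an asterisk where the edgeR test called a difference. The 3 comparisons with GOM within WG are filled with higher values and 24 asterisks, and among the diet comparisons ZFP36 and EGR1 are lower in WL, whereas JUNB, FOS, ATF3 and DUSP1 are higher.

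Diet was then compared within each AT, first NC with WG, which addresses weight gain. Of 32 tests of the 8 genes in 4 ATs, 7 were called higher in WG and 0 lower, against 6.37% of PCG tests called higher and 7.89% called lower. All 7 calls were Fos or Jun family genes or ATF3, and they numbered 1 for GOM, 2 for MAD and 4 for RAD. In these ATs the percentages of PCGs called higher were 12.2, 5.38 and 7.1, and of PCGs called lower 14.5, 5.29 and 9.6. In ULB, with 5 NC samples, 0 of the 8 genes was called, and 0.507% of PCGs were called higher and 1.87% lower.

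JUNB was called higher in WG in all 3 visceral ATs. In NC its lowest, median and highest TPM were 31.5, 44.2 and 73.8 in GOM, 36.1, 73.0 and 296 in MAD, and 35.7, 95.3 and 218 in RAD, and the WG medians of 90.9, 195 and 261 lay above the NC medians with overlapping ranges. In NC ULB the 5 values were 163, 159, 67.6, 39.2 and 160. The log2 fold change of WG over NC was 0.91 (SE 0.28, adjusted p = 0.0094, n = 9 and 45) in GOM, 1.10 (SE 0.27, adjusted p = 0.0034, n = 12 and 36) in MAD and 1.29 (SE 0.22, adjusted p = 1.4e-05, n = 12 and 39) in RAD by edgeR, and 0.87 in ULB, not called. Against set 1 alone the change of JUNB over NC was 0.78, 1.24, 1.51 and 0.94 in GOM, MAD, RAD and ULB, and against set 2 it was 0.64, 0.96, 0.95 and 0.81. The direction was thus the same in both sets.

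FOS was called higher in WG in MAD and RAD. Its lowest, median and highest TPM in NC were 133, 247 and 1084 in MAD and 81.4, 267 and 825 in RAD, and the NC ranges reached into the upper part of WG. The log2 fold changes were 0.70 (SE 0.23, adjusted p = 0.026) and 0.91 (SE 0.25, adjusted p = 0.0036). FOSB and ATF3 were called in RAD only, at 0.96 (SE 0.33, adjusted p = 0.019) and 0.86 (SE 0.23, adjusted p = 0.0029). Against set 1 the change of FOS over NC was 0.74 in MAD and 1.08 in RAD, and against set 2 0.66 and 0.65. Without the libraries under 88% of TPM on PCGs, 3 of the 7 calls remained, JUNB in MAD (1.06) and RAD (1.20) and ATF3 in RAD (1.11).

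The second diet comparison, WG with WL, addresses weight loss. Here 5 tests were called higher in WL and 3 lower, against 4.08% and 5.24% of PCG tests. FOS was higher in RAD and ULB, ATF3 in MAD, and DUSP1 in MAD and ULB, whereas EGR1 was lower in MAD and ZFP36 in MAD and RAD. By AT, the percentages of PCGs called higher and lower were 2.55 and 2.71 in GOM, 8.26 and 9.17 in MAD, 2.24 and 4.13 in RAD, and 3.22 and 4.9 in ULB.

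In WL, FOS had a lowest, median and highest TPM of 667, 1390 and 2293 in RAD and of 220, 730 and 2516 in ULB, and the lowest RAD value compares with a WG median of 743. The log2 fold change of WL over WG was 0.78 in RAD (SE 0.19, adjusted p = 0.0050, n = 39 and 10) and 0.79 in ULB (SE 0.27, adjusted p = 0.035, n = 38 and 10) by edgeR. DUSP1 in WL ran from 239 to 1310 TPM in MAD with a median of 613 and from 320 to 1279 in ULB with a median of 597, and its ranges overlapped those of WG. Its change was 0.60 (SE 0.17, adjusted p = 0.0059) in MAD and 0.69 (SE 0.19, adjusted p = 0.0091) in ULB, and ATF3 changed by 0.80 (SE 0.20, adjusted p = 0.0027) in MAD. Against both sets FOS and DUSP1 were higher in WL in all 4 ATs. FOS differed by 0.44 to 0.82 from set 1 and by 0.44 to 1.04 from set 2, and DUSP1 by 0.41 to 0.63 and 0.64 to 0.81. Without the libraries under 88% of TPM on PCGs, FOS in RAD (0.74) and ZFP36 in RAD (-1.75) were still called, and DUSP1 was called in GOM (0.77) in place of the other 2 ATs.

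ZFP36 and EGR1 in WL were compared with a WG group that is itself split. ZFP36 in WL had a lowest, median and highest TPM of 45, 91.7 and 168 in MAD, 47.6, 71.3 and 128 in RAD, 24.9, 36.4 and 114 in GOM, and 27.5, 76.1 and 159 in ULB. In GOM and RAD all WL values lay below the lowest library of WG set 2, and in MAD and ULB they reached its lower end. The log2 fold change of WL over all WG libraries was -1.51 (SE 0.50, adjusted p = 0.018) in MAD and -1.49 (SE 0.48, adjusted p = 0.033) in RAD by edgeR, and for EGR1 it was -1.13 (SE 0.45, adjusted p = 0.048) in MAD.

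The sets, which were drawn without the members and also differ in depth and in the share of TPM on PCGs, lay far apart in ZFP36. In GOM, ZFP36 lay between 16.3 and 41.7 TPM in the 26 libraries of set 1, with a median of 23.1, and between 139 and 420 in the 18 libraries of set 2, with a median of 244. In MAD the ranges were 29.5 to 111 and 146 to 852, in RAD 29.4 to 162 and 215 to 635, and in ULB 17 to 111 and 124 to 860. The sets did not overlap in ZFP36 in any of the 4 ATs, and neither did they in EGR1 in GOM (5.98 to 33.3 against 39.3 to 316) and MAD (26.1 to 119 against 157 to 620) or in NR4A1 in MAD (6.06 to 22.4 against 22.7 to 219). Of PCGs, 9.0%, 3.08%, 5.34% and 8.94% did not overlap between the sets in GOM, MAD, RAD and ULB. FOS, FOSB, JUNB, ATF3 and DUSP1 overlapped in all 4 ATs, and the FOS medians of set 1 and set 2 were 169 and 235 in GOM, 678 and 601 in MAD, 753 and 649 in RAD, and 404 and 480 in ULB.

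The sign of the diet difference in ZFP36, EGR1 and NR4A1 therefore changed with the set. Against set 1, WL differed in ZFP36 by 0.80, 0.60, 0.19 and 0.85 on the log2 scale in GOM, MAD, RAD and ULB, and against set 2 by -2.42, -2.25, -2.41 and -2.35. EGR1 differed by 1.05, 0.71, 0.37 and 0.93 from set 1 and by -2.10, -1.84, -1.72 and -1.80 from set 2, and NR4A1 by 1.12 to 1.70 and by -1.01 to -0.53. The same held for WG over NC, where ZFP36 was at -2.75 to -1.79 in set 1 and 0.41 to 1.26 in set 2, EGR1 at -2.82 to -1.46 and 0.26 to 1.08, and NR4A1 at -2.14 to -0.92 and 0.46 to 0.81. Over all WG libraries, none of the 3 genes was called between NC and WG in any AT, and NR4A1 was called in no diet comparison.

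The third comparison, NC with WL, does not involve the WG libraries, though it shares NC and WL samples with the others. Sets were looked for in WG only, and whether NC or WL libraries fall into such sets was not tested. In NC, ZFP36 ran from 88.1 to 237 TPM in GOM, 31.7 to 716 in MAD, 16.7 to 517 in RAD and 16.3 to 324 in ULB. Of the 32 tests 13 were called higher in WL and 5 lower, against 11.6% and 16.2% of PCG tests. The 13 were FOS, JUNB and DUSP1 in GOM, MAD and RAD, ATF3 in MAD, RAD and ULB, and FOSB in RAD, and the 5 were ZFP36 in GOM, MAD and RAD and EGR1 in GOM and MAD. By AT, the percentages of PCGs called higher and lower were 15.4 and 20.7 in GOM, 15.2 and 17.8 in MAD, 10.2 and 16.6 in RAD, and 5.39 and 9.37 in ULB.

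The values of ZFP36 in NC were 88.1 at the lowest, 132 in the median and 237 at the highest in GOM, against 24.9, 36.4 and 114 in WL, and 16.7, 136 and 517 in RAD, against 47.6, 71.3 and 128. The groups overlapped in GOM by the top of WL only, whereas in RAD the WL values lay inside the NC range. The log2 fold changes were -1.96 (SE 0.26, adjusted p = 2.84e-06, n = 9 and 10) in GOM, -1.34 (SE 0.41, adjusted p = 0.010) in MAD and -1.58 (SE 0.43, adjusted p = 0.0051) in RAD by edgeR. EGR1 fell from a median of 75.3 (52.0 to 174) in NC GOM to 24.8 (14.1 to 98.8) in WL GOM, a log2 fold change of -1.79 (SE 0.30, adjusted p = 4.82e-05), and by -1.0 (SE 0.41, adjusted p = 0.047) in MAD.

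On the higher side, FOS changed by 0.69 (SE 0.28), 1.17 (SE 0.32) and 1.70 (SE 0.35) in GOM, MAD and RAD, JUNB by 0.99 (SE 0.21), 1.35 (SE 0.29) and 1.5 (SE 0.27), and DUSP1 by 0.65 (SE 0.17), 0.95 (SE 0.24) and 1.14 (SE 0.19). ATF3 rose in ULB from NC values of 14.1, 19.6, 8.36, 9.02 and 36.9 TPM to a lowest, median and highest of 15.4, 53.1 and 122 in WL, a log2 fold change of 1.53 (SE 0.40, adjusted p = 0.014, n = 5 and 10) by edgeR. Of its 5 NC values, 3 lay below the lowest WL value. Without the libraries under 88% of TPM on PCGs, 10 tests were called higher and 2 lower, the latter EGR1 (-1.94) and ZFP36 (-2.84) in GOM, where 2 NC and 4 WL libraries were left.

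Whether the diet differences themselves differed between ATs was tested with interaction terms. By edgeR, 0 of the 8 genes passed an adjusted p of 0.05 for NC to WG, with FOS nearest (p = 0.049, adjusted p = 0.21) and 1 gene below 0.05 unadjusted, against 6.57% of PCGs called. For WG to WL 0 of the 8 passed, the lowest adjusted p was 0.79 for ATF3 and 0 were below 0.05 unadjusted, against 6.85%. Calls in some ATs and not in others are thus not shown to be differences between ATs.

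The 39 further immediate early genes were counted in the same comparisons. Between NC and WG, 6, 9, 17 and 1 were called higher in GOM, MAD, RAD and ULB and 1, 0, 0 and 0 lower, with medians of 0.26, 0.42, 0.56 and 0.30. PLK3, a stress kinase, rose by 1.08 in MAD and 1.11 in RAD, and IER5, a regulator of the heat shock response, by 1.40 in GOM and 1.36 in RAD. Between NC and WL, 14, 17, 19 and 12 were higher and 4, 1, 1 and 0 lower, with medians of 0.44, 0.57, 0.66 and 0.47, and PPP1R15A rose by 0.91, 1.22 and 1.25 in GOM, MAD and RAD. Between WG and WL the higher counts were 3, 5, 3 and 5 and the lower counts 0, 2, 2 and 1. Of 17 upstream factors and kinases, 3, 1, 2 and 2 were called higher from NC to WL in GOM, MAD, RAD and ULB and 6, 2, 3 and 1 lower, with medians of -0.34, -0.10, -0.30 and -0.11. SRF, the serum response factor, rose by 1.08 in RAD and 1.0 in ULB, and its coactivator MRTFB fell by 1.20 in RAD. From NC to WG, 1, 1, 1 and 0 of the 17 were higher and 1, 0, 0 and 0 lower, and from WG to WL 0, 1, 0 and 0 were higher and 0, 1, 1 and 1 lower. Of 13 heat shock genes, 1, 2, 1 and 2 were called higher from NC to WL and 7, 3, 3 and 3 lower, with medians of -0.69, -0.36, 0.03 and 0.26. The co-chaperone BAG3 was lower in all 4 ATs, at -2.79, -2.31, -2.32 and -1.84. From NC to WG, 2, 1, 1 and 0 heat shock genes were higher and 2, 0, 0 and 0 lower, and from WG to WL 0 were higher in any AT and 1, 2, 2 and 2 lower.

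Cell type markers moved in the same comparisons. From NC to WG in GOM, 3 of 7 adipocyte, 2 of 5 endothelial and 2 of 3 erythroid markers were called higher. In MAD, 7 of 7 macrophage markers were called higher, with a median summed TPM of 252 in NC (129 to 432) and 646 in WG (205 to 996), and 3 of 5 smooth muscle markers lower, with 1 NC library at 12921. In RAD, 3 of 7 macrophage, 3 of 5 smooth muscle and 2 of 3 erythroid markers were higher. From WG to WL in MAD, 6 of 6 T and B cell markers were called higher, with medians of 40.4 (16.2 to 476) and 58.4 (43.3 to 1003), and 3 of 5 fibroblast and progenitor markers lower. Neutrophil markers were lower in WL, with 1, 1 and 2 of 3 called in MAD, RAD and ULB. From NC to WL in GOM, 3 of 3 erythroid markers were called higher and 3 of 7 macrophage markers lower, and of 7 adipocyte markers 3 were higher and 1 lower. In MAD, 5 of 6 T and B cell and 4 of 7 macrophage markers were higher. Of 7 adipocyte markers 1 was higher and 4 were lower there, and of 5 smooth muscle markers 1 was higher and 3 were lower. In RAD, 3 of 7 macrophage, 2 of 5 smooth muscle and 2 of 3 erythroid markers were higher, and of 7 adipocyte markers 1 was higher and 2 were lower. In ULB, 3 of 5 fibroblast and progenitor markers were lower and 2 of 5 T and B cell markers higher. The part of these in the immediate early genes was not tested.

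Within a group the 8 genes spread more than most PCGs. Over 157 WG samples in 8 groups of AT and set, the SD of log2(TPM + 1) was 1.00 for FOSB, 0.78 for NR4A1, 0.71 for FOS, 0.70 for JUNB, 0.69 for EGR1, 0.66 for ATF3, 0.57 for ZFP36 and 0.47 for DUSP1. The median over 13906 PCGs was 0.33, and 83.7% (DUSP1) to 99.0% (FOSB) of PCGs had a smaller SD.

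The genes also varied together within the same samples. Over the 28 pairs of the 8 genes, the median Pearson r within an AT and set was 0.65 and 0.67 in GOM, 0.53 and 0.83 in MAD, 0.69 and 0.44 in RAD, and 0.49 and 0.82 in ULB for set 1 and set 2, with 17 to 26 samples each. Over all pairs of PCGs the medians lay between 0.08 and 0.17. FOS and FOSB were the closest pair, with a median r of 0.86 (0.62 to 0.97) over the 8 groups, followed by EGR1 and ZFP36 at 0.81 (0.71 to 0.90). EGR1 and ATF3 were the least close, at 0.33 (-0.21 to 0.76). Marker sums of other cell types varied with the genes in some of these groups. In MAD set 2, r with the endothelial sum was 0.46 to 0.71 over the 8 genes, with the T and B cell sum 0.56 to 0.77 and with the macrophage sum 0.33 to 0.77. In GOM set 1, r with the endothelial sum was 0.39 to 0.62. In ULB set 2, where the genes also varied closely, r was 0.13 to 0.37 with the endothelial sum and -0.41 to -0.23 with the macrophage sum. There r was also 0.30 to 0.51 with the smooth muscle sum and -0.59 to -0.04 with the neutrophil sum. With the summed heat shock genes it was 0.24 to 0.68. In RAD set 2, by contrast, r ran from -0.45 to 0.42 with the endothelial sum and from -0.55 to 0.06 with the smooth muscle sum. The part of cell composition in these values was not tested, and they are descriptions across samples that share library and depth.

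Among the 10 PCGs whose pattern over all RNA-seq samples was most like the mean of the members were KLF4, PLK3, PPP1R15A, EGR2, CCN1, NR4A3, NR4A2, KLF2 and CSRNP1. Their likeness was read again within the 8 WG groups, where the median r to the mean of the members was 0.79 for KLF4, 0.78 for PPP1R15A, 0.77 for CCN1, 0.75 for PLK3, 0.74 for CSRNP1, 0.71 for KLF2 and 0.61 for EGR2, NR4A2 and NR4A3. The median over other PCGs was 0.17. The genes named here were all among the 44 further immediate early genes listed.

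**Figure D4:**
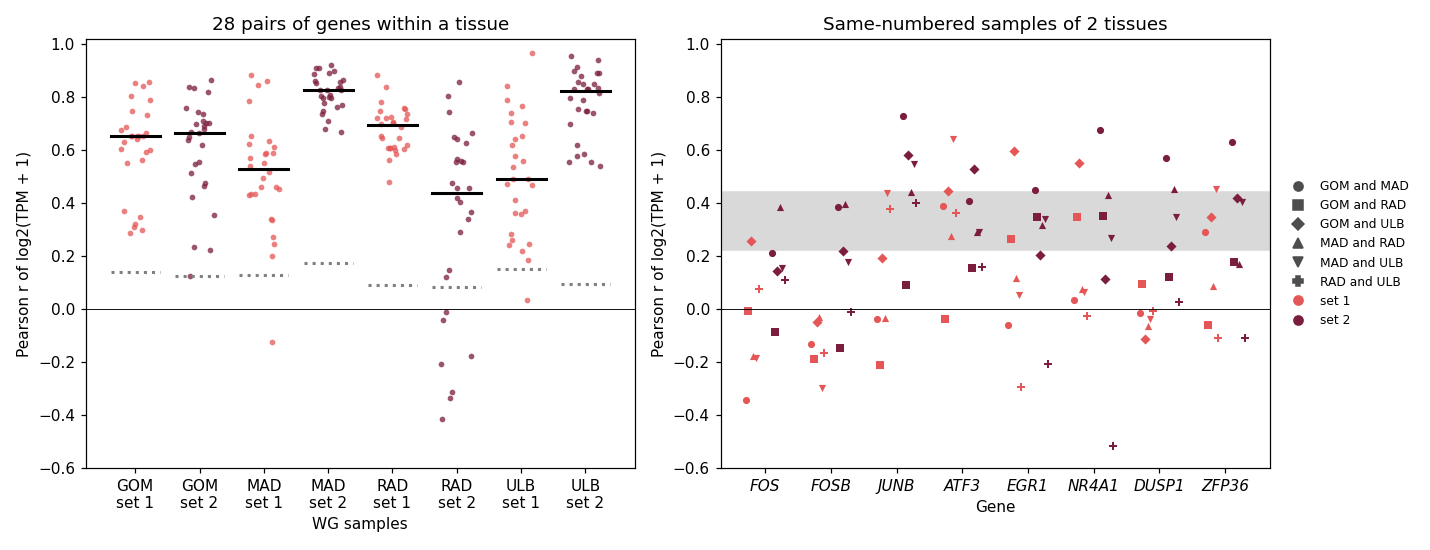
Left, Pearson r within WG samples for the 28 pairs of the 8 genes in each AT and set, with a black line at the median and a dotted grey line at the median over all PCG pairs. Right, Pearson r of each gene between ATs over same-numbered samples, by gene and set, with a grey band for the range of PCG medians. Pairs of genes within a sample lie mostly above the PCG median, whereas the same gene in 2 ATs scatters around and below the band.

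Between ATs, by contrast, samples of the same replicate number showed little likeness in these genes when read within a set. Of 44 replicate numbers, 41 fell in the same set in every AT, so likeness that comes with the set is left out here. The sets had medians far apart in ZFP36, EGR1 and NR4A1. Over 96 relations of a gene between 2 ATs within a set, with 12 to 20 numbers each, Pearson r ran from -0.52 to 0.73 with a median of 0.17 (0.015 in set 1 and 0.29 in set 2), and 66 were above 0. In 69 of the 96, r was below the median of PCGs for the same ATs and set, which lay between 0.22 and 0.44. The highest was JUNB between GOM and MAD in set 2, with r = 0.73 and rho = 0.77 (permutation p = 0.00090 and 0.00038, n = 17), and r was 0.74 without the 2 farthest samples, at the 88.4th percentile of PCGs. The lowest was NR4A1 between RAD and ULB in set 2, with r = -0.52 and rho = -0.49 (permutation p = 0.037 and 0.056, n = 16) and r = -0.58 without the 2 farthest. FOS between GOM and MAD in set 1 had r = -0.34 (permutation p = 0.18). Of the 96, 12 had a permutation p below 0.05, 11 of them with r above 0. The share of PCGs with such a p was not computed, so the 12 are not shown to exceed it. Per pair of ATs and set, 14.8% to 42.3% of PCGs had an r of 0.5 or more.

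The A-B index of Hi-C, in which values above 0 mark the open A compartment and values below 0 the closed B compartment, was read for the 20 kb bin holding each gene start. The group mean was above 0 for all 10 genes in all 12 groups, which held for 41.8% of 113298 bins. EGR1 had the highest mean over groups, 7.10, at the 99.9th percentile of bins. ZFP36 (5.93), JUNB (5.64), FOSB (5.58), IER2 (5.57), FOS (5.52), ATF3 (4.90) and NR4A1 (4.51) followed, and DUSP1 (3.46, 86.4th percentile) and JUN (1.82, 70.2nd percentile) were lowest.

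A difference in index was called above 0.75 with an adjusted p below 0.05 (limma). From NC to WG, 9 of 40 tests of the 10 genes were called higher and 0 lower, against 3.94% and 0.5% of bin tests. From WG to WL 3 were higher and 0 lower, against 2.28% and 2.05%, and from NC to WL 14 were higher and 0 lower, against 11.6% and 1.12%. These percentages are over bins of both compartments, whereas the bins of the 10 genes are all in A. From NC to WL the median difference was 0.35, 0.78, 0.60 and 0.35 over the 10 genes in GOM, MAD, RAD and ULB, and 0.36, 0.33, 0.32 and 0.33 over bins where the mean of both groups was above 0. In GOM and ULB the medians of the genes and of these open bins thus lay within 0.02 of each other. From NC to WG the medians were 0.28, 0.69, 0.51 and 0.28 over the genes and 0.18, 0.26, 0.21 and 0.17 over these bins. Between ATs within WG, 1 of 60 tests was higher and 2 lower, against 6.25% and 4.03%.

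EGR1 had the largest differences. Its mean index was 6.08 ± 0.79 (SD, n = 9), 6.91 ± 0.76 (n = 46) and 7.84 ± 1.07 (n = 10) in GOM for NC, WG and WL in turn, 6.06 ± 1.15 (n = 12), 8.21 ± 0.89 (n = 37) and 8.57 ± 0.77 (n = 10) in MAD, and 5.92 ± 0.96 (n = 12), 7.66 ± 0.99 (n = 40) and 8.22 ± 0.78 (n = 10) in RAD. In ULB it was 6.09 ± 0.65 (n = 5), 6.90 ± 1.17 (n = 39) and 6.77 ± 1.26 (n = 10). The difference of WG from NC was 0.83 (SE 0.27, adjusted p = 0.036) in GOM, 2.14 (SE 0.31, adjusted p = 4.68e-06) in MAD and 1.74 (SE 0.31, adjusted p = 8.37e-05) in RAD by limma, that of WL from WG 0.93 (SE 0.28, adjusted p = 0.016) in GOM, and that of WL from NC 1.75, 2.51 and 2.30. Within WG, EGR1 was higher in MAD than in GOM by 1.29 and lower in ULB by -1.31 than in MAD and by -0.76 than in RAD, and these are the 3 calls between ATs.

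The RNA of EGR1 did not have the same order as its index. For NC, WG and WL in turn, its median TPM was 124, 166 and 82.2 in MAD and 75.3, 27.1 and 24.8 in GOM, whereas the index was higher in WL than in NC in both. The WG medians mix the 2 sets, with 46.9 and 260 in MAD and 13.5 and 141 in GOM for set 1 and set 2. The place of WG in the RNA order thus changed with the set. NC against WL does not involve WG, and sets within NC or WL were not looked for.

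IER2, for which the index was the measure taken, was higher in WL than in NC by 1.16 (SE 0.26), 1.3 (SE 0.23) and 1.40 (SE 0.17) in GOM, MAD and RAD, and higher than in WG by 0.77 in GOM and 0.89 in RAD. In MAD it was higher in WG than in NC by 0.77. FOS was higher in WG than in NC by 0.89, 0.98 and 0.92 in MAD, RAD and ULB, and in WL than in NC by 0.81, 1.29 and 0.93. The 2 ULB calls of FOS rest on 5 NC samples. On leaving out each of these in turn, the first (0.86 to 0.98 where lost) was lost in 4 of 5 cases and the second (0.87 to 1.022) in all 5. JUNB was higher in WL than in NC by 0.84, 0.98 and 1.34 in GOM, MAD and RAD, and in WG than in NC by 0.91 in RAD. ZFP36 was higher than in NC by 0.76 in both WG and WL of MAD. JUN was called once, by 0.80 from NC to WL in MAD, and FOSB, ATF3, DUSP1 and NR4A1 in no comparison.

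**Figure D5:**
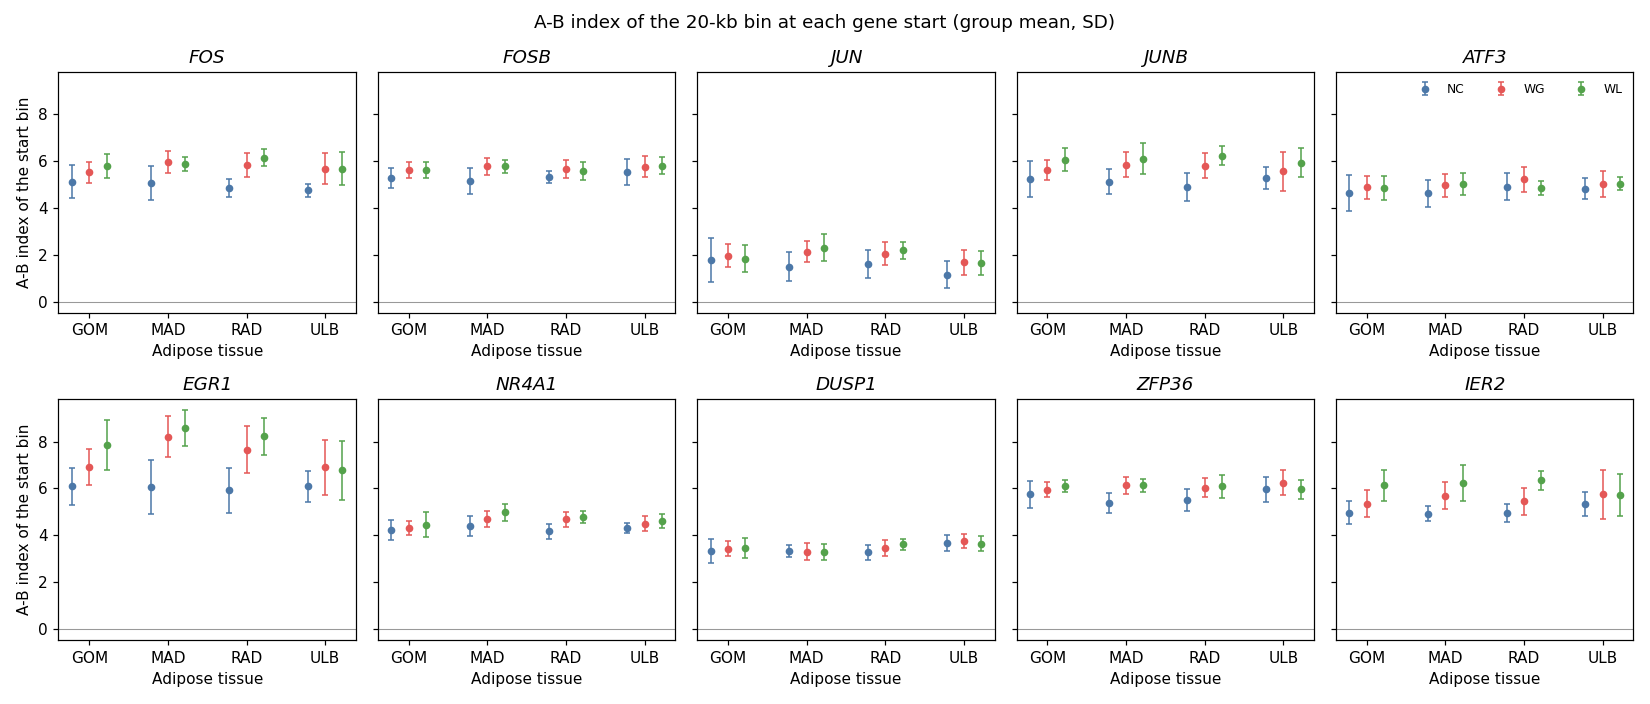
Mean A-B index ± SD of the start bin of each of the 10 genes in the 12 groups, by AT and diet. EGR1 stands highest and is higher in WG and WL than in NC in the 3 visceral ATs, JUN stands lowest, and all means are above 0.

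The index differences of bins leaned to one side. From NC to WL in RAD, 17254 bins were called higher and 667 lower, and after quantile normalization between all samples 6177 and 4814. In MAD the counts went from 11135 and 1541 to 4217 and 2272, in GOM from 10867 and 585 to 2947 and 1275, and from NC to WG from 4302 and 768 to 1301 and 795 in MAD, from 4182 and 715 to 1249 and 1439 in RAD and from 3035 and 125 to 990 and 448 in GOM. After this normalization the EGR1 calls from NC to WL stood at 1.38, 2.35 and 2.25 in GOM, MAD and RAD and those from NC to WG at 1.85 and 1.39 in MAD and RAD, whereas 16 of the 29 member calls were lost. FOS (0.93), JUNB (1.00) and IER2 (1.06) kept their NC to WL calls in RAD.

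H3K27ac, a mark of active enhancers, was given as ranked lists of stitched enhancers from 18 pools of samples, with no replicates, so that no test was made. By the labels, each AT had fewer H3K27ac samples in NC and in WL than in WG, and NC MAD had only 1. A super-enhancer, the top class of these lists, lay within 10 kb of the start of JUNB and ZFP36 in all 18 lists, of DUSP1 and FOSB in 17, of FOS, JUN and IER2 in 16 and of NR4A1 in 15. EGR1 had one in 9 lists and ATF3 in 8. Of all PCGs 4.24% to 24.7% had one in a list, with a median of 12.9%. For EGR1 it was found in 1 of 4 NC lists (ULB), 6 of 10 WG lists and 2 of 4 WL lists. The stitched region at FOS ranked as high as 5th and that at DUSP1 as high as 4th in a list.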

How the data were processed

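RNA was sequenced from rRNA-depleted, stranded libraries. Per the study's methods, the authors quantified transcripts with kallisto 0.43.0 on Sscrofa11.1 (Ensembl release 102) and summed them per gene with tximport. The deposited gene tables hold estimated counts, not whole numbers and so rounded here, and TPM. The deposited A-B index, a score per 20 kb bin, came from MboI Hi-C maps processed by the authors with Juicer, Knight-Ruiz balancing and BNBC. The deposited enhancer tables give H3K27ac signal of input-subtracted stitched regions on pooled samples (BWA 0.7.15, SAMtools 1.3.1, SICER, ROSE). In the count, TPM and index files, 9 columns each matched no labelled sample and were not used.

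Tests took PCGs that exceeded 0.5 TPM in 80% or more of either group's samples, by edgeR 4.0.16 (TMM, quasi-likelihood F test, 2-sided, Benjamini-Hochberg over all PCGs tested). SE is the log2 fold change over the root of F. The index was tested with limma 3.58.1 over all bins. R 4.3.3, Python 3.11.15, numpy 2.4.6 and pandas 2.3.3 were used, and the tests were tried on simulated data first. Samples were grouped by their labels. Correlations used log2(TPM + 1) with 100000 permutations. They were taken within the 2 sets of WG libraries, since pooled values would mix them, and their p-values are unadjusted. Those sets, and the fits within them and without replicate 35 of WG GOM, were chosen after seeing the data. The sets were cut at the largest gap of the first principal component within each AT. Alternatives were DESeq2 1.42.0, other size factors, no filter, leaving out libraries, terms for libraries under 88% of TPM on PCGs, the replicate number as a block and, for the index, quantile normalization, neighbouring bins and adjusted p alone.

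The members and gene lists (further immediate early genes, upstream factors and kinases, heat shock genes, cell type markers) were chosen with earlier results of these data known. All members are described, and of other lists at most the 3 genes of lowest adjusted p per comparison are named. One gene among those most like the members is not reported here. A motif of the CArG box is CC, 6 bases A or T, and GG.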

Additional observations from a re-analysis of the deposited data

Results flagged for a closer look

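In the RAD of WL pigs, replicate 6 had the lowest FOSB level, 50.6 TPM, against 161 TPM in the next sample and a median of 215 in the 10 samples, a gap that is wide for the range of the group. It was the only such case among 108 gene and group combinations checked, and chance gives about 1 in 20.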

How the results depend on the processing

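Over the alternatives tried, 426 values of the members were kept, 36 called log2 fold changes kept the direction only and 3 reversed. The 426 are called log2 fold changes that kept direction and call, together with medians of r between ATs. The medians of r number 16 with a pseudocount of 0.1, 16 with TMM-scaled log2 counts, and part of 56 without the libraries under 88%. Of called A-B index differences, 37 were kept and 34 lost. The reversals were EGR1 (0.71) and ZFP36 (0.60) from WG to WL in MAD and ZFP36 in RAD (0.19), each with set 1 of the WG libraries alone, where the construction leaves the lower libraries.

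Without the libraries under 88% of TPM on PCGs, the calls came to 3 higher and 0 lower from NC to WG, 2 and 1 from WG to WL, and 10 and 2 from NC to WL. With a term for these libraries, they were 3 higher and 1 lower from WG to WL, and by DESeq2 5 higher and 5 lower, including ZFP36 in GOM and ULB. With set 1 alone they were 8 higher and 12 lower from NC to WG, 17 and 0 from WG to WL, and 22 and 3 between ATs (the 3 being FOS, FOSB and ZFP36 in ULB against RAD), and with set 2 alone 8 and 0, 6 and 12, and 24 and 0. Without replicate 35 of WG GOM, FOS and DUSP1 were also called higher from WG to WL in GOM, which makes 7.

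For the A-B index, quantile normalization left 3 higher calls from NC to WG, 1 from WG to WL and 7 from NC to WL. An adjusted p alone gave 16 from NC to WG, and 15 higher and 7 lower between ATs. The mean of 3 bins gave 1 lower between ATs. The causes were not tested. The sets were drawn from the data, so counts with 1 set alone are descriptions.

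With the replicate number as a block, 23 of the 24 calls between ATs were kept in expression, and the index had 2 higher and 1 lower. Deviations of same-numbered samples from their group means correlated above 0.1 in 30 to 37 numbers per pair of ATs, all but 0 to 2 of them, with medians of 0.58 to 0.66, and 17 to 27 correlated best with their own number, as a hint from the data and not from the design. These deviations still hold the difference between the sets, and 41 of 44 replicate numbers fell in the same set in every AT. The counts above 0.1 and the medians thus do not separate a shared number from a shared set.

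Counts of PCGs called moved by over 1.5 times in 35 of 139 cases. Without a filter on low values they were 5949, 2900, 4396 and 1124 for NC against WG in GOM, MAD, RAD and ULB, against 3812, 1477, 2266 and 323, and 1576, 2533, 3770, 1468, 3239 and 2152 between ATs, against 862, 1525, 2456, 732, 1971 and 1237. Without the libraries under 88% they were 381, 830 and 49 for NC against WG in GOM, RAD and ULB, 214 and 125 for WG against WL in GOM and MAD (731 and 2425 with them), and 1705, 1988 and 1169 for NC against WL in MAD, RAD and ULB (4689, 3685 and 2048 with them). With a term for them, they were 872 and 59 for NC against WG in RAD and ULB and 977 for WG against WL in MAD. Without NC ULB replicate 5 or 9, NC against WG in ULB gave 136 and 134. With set 1 alone, NC against WG gave 6516, 4304, 4337 and 2862 and WG against WL 1545 in GOM and 1811 in ULB, and with set 2 alone 1821 and 2170 in GOM and ULB and 4479, 4610, 3990 and 4354 (all libraries: 863 in RAD and 1107 in ULB).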
